A study of Mus musculus with 12 samples.

Results

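The 10 genes of the somatostatin and neuropeptide Y systems described here were the rows of the deposited count table whose gene name was Sst, Cort, Sstr1, Sstr2, Sstr3, Sstr4, Npy, Npy1r, Npy2r or Npy5r, out of 48795 genes in all. They were read in the piriform cortex, a cortical area that receives olfactory input, of 12 mice by RNA sequencing of whole tissue. Of the animals, 6 carried 1 copy of the Q140 knock-in (Het (Q140) KI), a mouse model of Huntington's disease in which Htt holds an expanded CAG repeat, and 6 were wild type (WT). Each genotype held 3 females and 3 males, and every animal was 12 months old and on a C57BL/6 background. The model keeps 1 normal Htt allele, and each library is bulk tissue of 1 animal at 1 age. Replicates 1, 2 and 4 of Q140 and 2, 3 and 6 of WT were female.

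Somatostatin and neuropeptide Y are inhibitory neuropeptides that cortical interneurons cut from larger precursors, store in dense-core vesicles and release beside GABA. Somatostatin marks a class of interneurons that contact dendrites, and many of these cells, as well as neurogliaform cells, also make neuropeptide Y. The receptors of both peptides couple mainly to Gi/o proteins, which lower cAMP, open inwardly rectifying potassium channels and close presynaptic calcium channels. The cAMP response element, which CREB binds, is a known part of the somatostatin promoter.

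The windows of the 3 genes that fell in Q140 animals are shown here so that this element can be seen or missed in them. Each holds the 250 bases before the RefSeq start of the gene on GRCm38.p6, 5′ to 3′ on the strand of the gene, at chr16:23890845-23891094 (minus) for Sst, chr11:113619077-113619326 (plus) for Sstr2 and chr3:82548086-82548335 (minus) for Npy2r. Capitals mark TGACGTCA.
Sst: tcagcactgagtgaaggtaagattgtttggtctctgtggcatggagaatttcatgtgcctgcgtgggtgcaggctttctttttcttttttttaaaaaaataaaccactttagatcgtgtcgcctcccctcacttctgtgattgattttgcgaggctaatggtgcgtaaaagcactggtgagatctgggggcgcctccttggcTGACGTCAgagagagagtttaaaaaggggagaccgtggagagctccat
Sstr2: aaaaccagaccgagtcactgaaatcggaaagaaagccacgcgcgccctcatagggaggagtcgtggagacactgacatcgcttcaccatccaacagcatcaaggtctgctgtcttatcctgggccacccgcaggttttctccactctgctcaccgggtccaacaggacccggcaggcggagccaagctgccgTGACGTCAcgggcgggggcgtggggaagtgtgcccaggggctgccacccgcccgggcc
Npy2r: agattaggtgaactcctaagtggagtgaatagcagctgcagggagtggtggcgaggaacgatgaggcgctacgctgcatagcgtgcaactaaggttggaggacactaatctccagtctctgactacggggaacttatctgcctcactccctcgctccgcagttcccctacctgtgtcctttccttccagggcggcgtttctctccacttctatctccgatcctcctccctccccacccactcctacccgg
The 8-letter element begins at position -48 in the Sst window and at -58 in the Sstr2 window, counted back from the start, and those letters are not in the Npy2r window. RefSeq windows were matched for 9 of the 10 genes, 10 windows in all, and Sst and Sstr2 were the only genes of the 9 with TGACGTCA. Of all 32851 mouse windows of this length, 508, or 1.55%, hold it. Its shorter core, TGACG or CGTCA, searched on both strands and contained in the full element, is in the windows of 4 of the 9 genes, with Cort at -18 and Sstr3 at -9 beside Sst and Sstr2, and in 17.8% of all windows. The GENCODE model of Sst reaches past its RefSeq start into the window shown, and those of Sstr4, Npy1r and Npy5r also reach into their windows. The part of the Sst window that its model covers holds the element at -48. The Sstr3 windows lie wholly inside its GENCODE model. The Sst element at -48 and the Sstr3 site at -9 are therefore not upstream of the GENCODE starts of these genes.

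On GRCm38, Sst lies on chromosome 16 from 23889573 to 23890958 (minus strand), Sstr2 on chromosome 11 from 113619342 to 113626028 (plus) and Npy2r on chromosome 3 from 82538383 to 82548084 (minus). Npy lies on chromosome 6 from 49822710 to 49829507 (plus). Npy1r, on chromosome 8 from 66697192 to 66706792 (plus), and Npy5r, from 66679965 to 66688128 (minus), are divergent neighbours 9063 bases apart. Sstr2 lies wholly inside Slc39a11 on the opposite strand, and it is the only gene of the 10 that overlaps another. How the counting treated strand is not given in the sources used here, and the assignment of Sstr2 reads is therefore uncertain. Slc39a11 had 3964 reads over all 12 animals.

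Total counts were 19587208 to 35198602 per animal, and a count of 0 would allow up to 0.153 CPM (counts scaled to the size of each library) in the shallowest library (3 counts, counting error only). The summed level of 7 cortical excitatory markers was 4254 to 4655 CPM in Q140 animals and 5112 to 6803 CPM in WT animals, without overlap. Of all single genes tested, 4.59% had ranges that did not overlap. The mean log2 CPM of the same 7 markers did overlap, at 6.32 to 6.66 in Q140 animals and 6.35 to 7.17 in WT animals. The summed level of 10 striatal projection neuron markers was 617 to 1110 CPM in Q140 animals and 387 to 1694 CPM in WT animals, with WT replicate 6 lowest and WT replicate 5 highest. That of 6 oligodendrocyte markers was 3884 to 5560 CPM in Q140 animals and 3421 to 4842 CPM in WT animals, and that of 6 meningeal markers was 118 to 291 CPM in Q140 animals and 26.8 to 286 CPM in WT animals. Every marker of these lists was detected in every animal, so none of the defining markers is at 0, and the striatal and meningeal sums varied widely between animals of 1 genotype.

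The levels of the 10 genes can be ordered only per length, in FPKM. Sst was highest, at 97.8 FPKM (range 74.8 to 130) in Q140 animals and 162 FPKM (99.8 to 218) in WT animals. Npy came next, at 39.3 FPKM (32.6 to 44.01) in Q140 animals and 49.7 FPKM (38.2 to 72.7) in WT animals. Both precursors stood clear of the gene below them in every animal of both genotypes.

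Among the receptors, Sstr3, Npy1r and Sstr2 formed the next tier, with mean levels of 7.59 to 7.82 FPKM in Q140 animals and 7.51 to 11.3 FPKM in WT animals. Their ranges overlapped in both genotypes, so their order is not separated beyond the spread between animals. Sstr1 followed at 3.67 FPKM in Q140 animals and 3.70 FPKM in WT animals, below that tier in both. Sstr4, Npy5r and Cort averaged 2.29 to 2.47 FPKM in Q140 animals and 2.21 to 3.07 FPKM in WT animals, with overlapping neighbours. Npy2r was lowest on average, at 0.792 FPKM in Q140 animals and 1.499 FPKM in WT animals, and its range overlapped that of the gene above it in both genotypes. The remaining members of the families were near absent. Sstr5 had 14 reads in Q140 animals and 24 in WT animals, Npy4r and Npy6r had 1 read each, and Pyy and Ppy had none.

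Of the 10 genes, all passed the filter, 3 were lower in Q140 animals (Sst, Sstr2 and Npy2r), none was higher and 7 did not pass the test. Over all 17725 genes tested, 6.69% were lower and 4.50% higher, 11.2% in either direction, and the median log2 fold change was 0.0045. A gene passed where the adjusted p of the edgeR quasi-likelihood test with sex as a covariate, Benjamini-Hochberg over all genes tested, was below 0.05. The point estimate was negative for 9 of the 10 genes and for 48.7% of all genes tested, and it was small for Npy1r (-0.01) and Sstr1 (-0.05). Npy1r turned positive with total counts as the scaling, and both Npy1r and Sstr1 with log2 FPKM. The CPM ranges of the genotypes overlapped for every one of the 10, whereas 4.59% of all genes tested had ranges that did not overlap (2.70% lower, 1.88% higher).

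**Figure D1:**
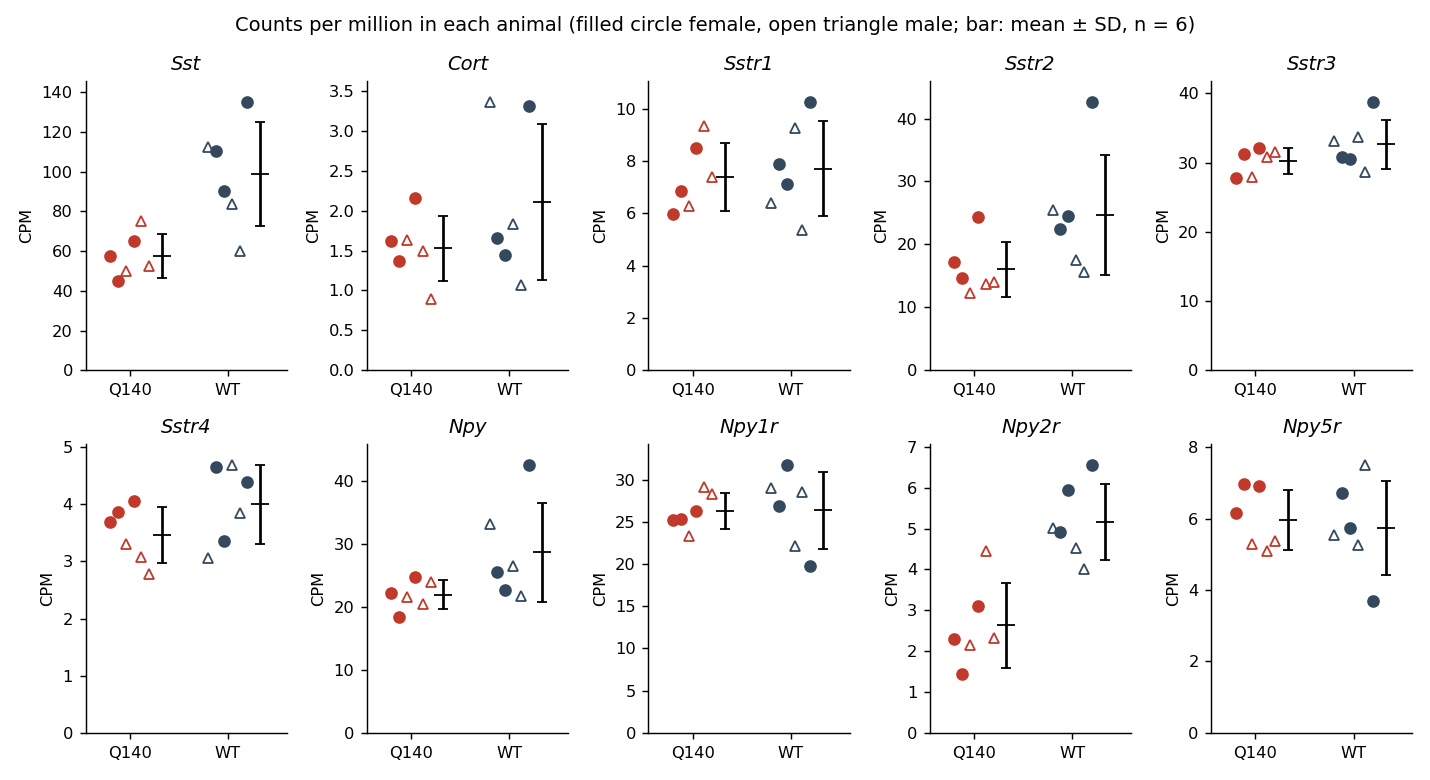
Level of each gene in CPM (vertical axis from 0) in the 6 Q140 and 6 WT animals, with filled circles for females, open triangles for males and bars for the mean ± SD. Sst and Npy2r lie lower in Q140 animals with partial overlap, and WT replicate 6 is the highest WT point for Sst, Sstr2, Npy and Npy2r.

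Sst, the somatostatin precursor, fell in Q140 animals. Its lowest, median and highest levels were 44.9, 55.2 and 75.4 CPM in Q140 animals and 60.003, 100.3 and 135 CPM in WT animals. Each of the 6 Q140 animals was below the WT mean, 4 were below the lowest WT animal, and only WT replicate 5, a male, lay within the Q140 range. The means were 57.6 ± 11.1 CPM in Q140 animals and 98.6 ± 26.2 CPM in WT animals (SD, n = 6 each), and Sst fell by 0.76 on the log2 scale (95% interval -1.12 to -0.41), 41.1% lower, with an edgeR adjusted p of 0.00997. In bulk tissue, fewer cells that make a transcript and less of it per cell cannot be told apart.

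The striatal marker sum ran opposite to Sst at the ends of the WT range, but not between them. WT replicate 6 had the highest Sst level, 135 CPM, and the lowest striatal sum, while WT replicate 5 had the lowest Sst level, 60.003 CPM, and the highest striatal sum. WT replicate 2 had 110 CPM of Sst with a striatal sum of 1600 CPM, and WT replicate 4 had 83.9 CPM with a sum of 707 CPM. With the mean of the striatal list as a covariate the Sst difference was as large, -0.77 on the log2 scale (edgeR adjusted p = 0.0020). With the meningeal list it was -0.74 (adjusted p = 0.0288), and with the 9 genes shared by GABA neurons it was -0.72 (adjusted p = 0.0074). With the mean of 12 other markers of Sst interneurons as a covariate it was -0.19 (adjusted p = 0.581). That covariate was added after the data were seen and itself follows genotype in part, as 11 of the 12 markers had a negative estimate. Its fit therefore cannot separate these markers from genotype. With limma on log2 FPKM + 0.1 the call was lost at a similar size, -0.70 (adjusted p = 0.0507).

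The names of the animals carry prefixes whose meaning the labels do not state, and they follow genotype in part. RFckQ was borne by 1 Q140 and 4 WT animals, RFQ by 3 Q140 and 1 WT animal, FMQ by WT replicate 6 alone, and 2 Q140 animals had none. Among the 9 RFckQ and RFQ animals, with the prefix as a term, the log2 differences were -0.56 for Sst (edgeR adjusted p = 0.330), -0.68 for Npy2r (0.311) and -0.17 for Sstr2 (0.724). None of the 10 genes passed in that fit, in which 81 genes passed in all. With the 5 animals whose names hold the number 150 or 161, and that number as a block, the differences were -0.43 for Sst (edgeR adjusted p = 0.671), -0.65 for Npy2r (0.753) and -0.23 for Sstr2 (0.779). Prefix and genotype are thus only partly separable here, and the call for each of the 3 genes that fell was lost within the prefixes.

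Cort, the precursor of cortistatin, a related peptide that binds the somatostatin receptors, did not pass the test. It was low and spread widely, at 0.893, 1.56 and 2.16 CPM (lowest, median, highest) in Q140 animals and 1.07, 1.75 and 3.36 CPM in WT animals. Only WT replicates 1 and 6 lay above the Q140 range. The log2 difference was -0.45 (95% interval -1.05 to 0.14, edgeR adjusted p = 0.323), an interval that holds both no difference and one larger than that of Sst.

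Sstr2, a somatostatin receptor of the cell body and dendrites of cortical neurons, was the only one of the 4 somatostatin receptors tested that fell. Its lowest, median and highest levels were 12.2, 14.4 and 24.4 CPM in Q140 animals and 15.6, 23.4 and 42.6 CPM in WT animals. Of the Q140 animals, 4 lay below every WT animal, replicate 1 lay above WT replicate 5 only and replicate 4 lay among the WT animals, while WT replicate 6 stood apart from the other WT animals, which reached 25.5 CPM. The means were 16.05 ± 4.41 CPM in Q140 animals and 24.7 ± 9.59 CPM in WT animals (SD, n = 6 each), and Sstr2 fell by 0.61 on the log2 scale (95% interval -0.98 to -0.24, edgeR adjusted p = 0.0346). Without WT replicate 6 the difference was -0.44 (edgeR adjusted p = 0.0640), and the call was also lost without Q140 replicate 1, 2, 3 or 6 or WT replicate 1, where adjusted p was 0.0504 to 0.0907. It was lost too with no sex covariate (adjusted p = 0.0918), with the meningeal covariate (0.0927), with limma voom (0.0561) and with limma on log2 FPKM + 0.1 (0.107) or + 1 (0.0849).

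The other somatostatin receptors did not pass. Sstr1 spanned 5.98 to 9.33 CPM in Q140 animals and 5.36 to 10.2 CPM in WT animals, with a log2 difference of -0.05 (95% interval -0.39 to 0.28). Sstr3, a receptor of neuronal cilia, spanned 27.8 to 32.2 CPM in Q140 animals and 28.7 to 38.7 CPM in WT animals, with a log2 difference of -0.11 (-0.26 to 0.04). Sstr4 spanned 2.78 to 4.05 CPM in Q140 animals and 3.06 to 4.68 CPM in WT animals, with a log2 difference of -0.21 (-0.47 to 0.05). The interval of Sstr3 is the narrowest of the 10. Those of Sstr1, Sstr3 and Sstr4 each leave out a decrease of the size estimated for Sst or Sstr2. Sstr4 passed only with the meningeal list as a covariate, at -0.35 (edgeR adjusted p = 0.0299).

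Npy, the neuropeptide Y precursor, did not pass at 0.05 after adjustment. Its lowest, median and highest levels were 18.5, 21.9 and 24.8 CPM in Q140 animals and 21.7, 26.0 and 42.5 CPM in WT animals. Every Q140 animal was below the WT median, 3 were below the lowest WT animal, and WT replicates 1 and 6 lay well above the rest. The log2 difference was -0.39 (95% interval -0.70 to -0.08, unadjusted p = 0.0169, edgeR adjusted p = 0.0992). Npy passed with DESeq2 (adjusted p = 0.0471), with no filter on low counts (0.0361) and with the striatal list as a covariate (0.0187), and without WT replicate 6 its difference was -0.23 (edgeR adjusted p = 0.183).

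Npy2r, the Y2 receptor that sits largely on axon terminals and limits release, including that of neuropeptide Y itself, had the largest fitted difference of the 10. Its lowest, median and highest levels were 1.45, 2.31 and 4.45 CPM in Q140 animals and 4.02, 4.97 and 6.55 CPM in WT animals. Of the Q140 animals, 5 lay below every WT animal, and Q140 replicate 5, a male, lay above WT replicate 5 only. The means were 2.63 ± 1.03 CPM in Q140 animals and 5.16 ± 0.930 CPM in WT animals (SD, n = 6 each), and Npy2r fell by 0.96 on the log2 scale (95% interval -1.43 to -0.50), 48.7% lower, with an edgeR adjusted p of 0.0128. With the striatal list as a covariate it was -0.98 (adjusted p = 0.0041), and with the Sst interneuron markers as a covariate -0.38 (adjusted p = 0.488). The Sst interneuron markers themselves follow genotype in part, so that fit cannot separate them from genotype. The call was lost with limma on log2 FPKM + 0.1 and no filter, at -0.90 (adjusted p = 0.0555).

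Npy1r and Npy5r, the neighbouring genes of the Y1 and Y5 receptors, which act mainly on the receiving cell, did not pass. Npy1r spanned 23.3 to 29.1 CPM in Q140 animals and 19.8 to 31.7 CPM in WT animals, with a log2 difference of -0.01 (95% interval -0.22 to 0.21), and its sign differed between settings. Npy5r spanned 5.08 to 6.97 CPM in Q140 animals and 3.68 to 7.496 CPM in WT animals, with a log2 difference of 0.05 (-0.27 to 0.37), which was -0.07 without WT replicate 6. WT replicate 6 was the lowest WT animal for both, and the highest for 6 of the other genes.

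**Figure D2:**
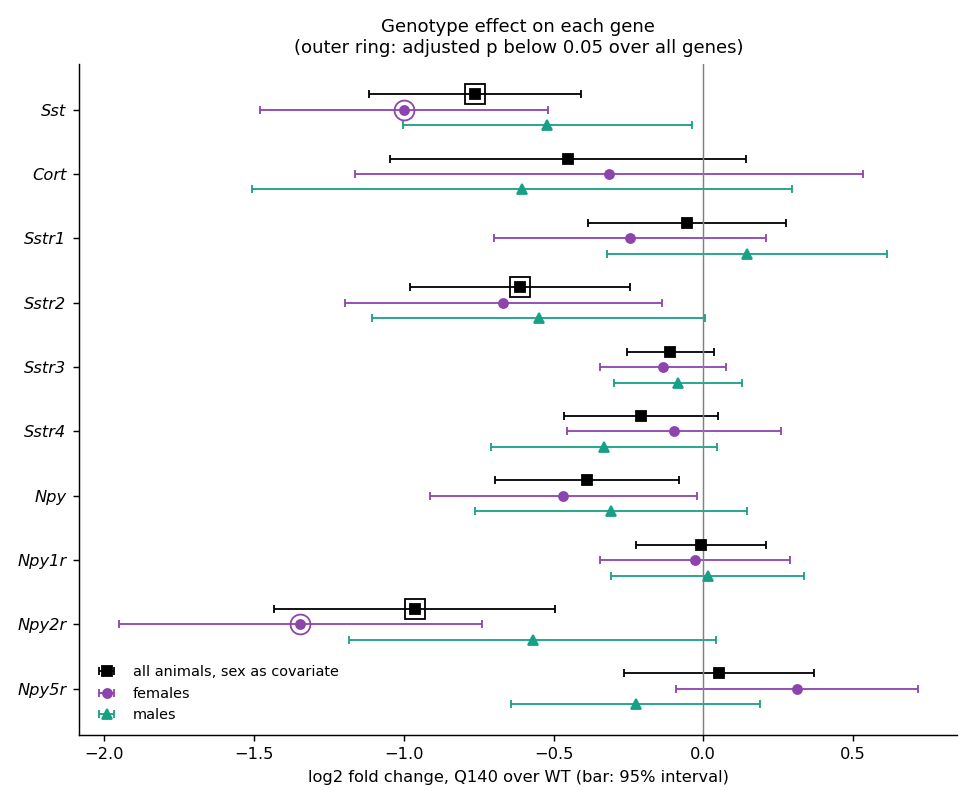
Fitted log2 fold change, Q140 over WT (horizontal axis), of each gene over all animals with sex as a covariate, within females and within males, with 95% intervals; outer rings mark an adjusted p below 0.05. Sst and Npy2r are ringed over all animals and within females, and Sstr2 over all animals only.

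Within females, 2 of the 10 genes were lower in Q140 animals, where 4.21% of all genes tested were lower, 2.83% higher and 7.05% either. Sst spanned 44.9 to 65.1 CPM in Q140 females and 90.2 to 135 CPM in WT females, a log2 difference of -1.0001 (95% interval -1.48 to -0.52, edgeR adjusted p = 0.0191). Npy2r spanned 1.45 to 3.10 CPM in Q140 females and 4.93 to 6.55 CPM in WT females, a log2 difference of -1.35 (-1.95 to -0.74, adjusted p = 0.0141). These were the genes of the 10 whose ranges did not overlap in females, where 14.8% of all genes tested were lower without overlap, 14.8% higher and 29.5% either. Leaving out single animals took away the Sst call in females without Q140 replicate 1 or 2 or WT replicate 6 (adjusted p = 0.0581, 0.104 and 0.0643) and the Npy2r call without Q140 replicate 2 or WT replicate 3 (0.0771 and 0.0507). Q140 replicates 1 and 2 are the animals without a name prefix, and WT replicate 6 is the FMQ animal. Genotype and name prefix are thus only partly separable within females.

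Within males none of the 10 passed, where 0.959% of all genes tested were lower, 0.440% higher and 1.40% either. Sst spanned 50.0 to 75.4 CPM in Q140 males and 60.003 to 112 CPM in WT males, a log2 difference of -0.52 (95% interval -1.004 to -0.04, edgeR adjusted p = 0.266). Npy2r spanned 2.16 to 4.45 CPM in Q140 males and 4.02 to 5.02 CPM in WT males, a log2 difference of -0.57 (-1.18 to 0.04, adjusted p = 0.339). Sstr2 was the gene of the 10 whose ranges did not overlap in males, at 12.2 to 14.1 CPM in Q140 males and 15.6 to 25.5 CPM in WT males, where 10.5% of all genes tested were lower without overlap, 9.68% higher and 20.2% either. Its log2 difference was -0.55 (edgeR adjusted p = 0.309). Every Q140 male and WT replicate 4 bore the prefix RFQ, whereas WT replicates 1 and 5 bore RFckQ. Genotype and prefix are therefore only partly separable within males too.

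The difference of the genotype effect between the sexes was tested directly, and no gene of the 17725 passed (0%; 1633 had an unadjusted edgeR p below 0.05). Male minus female, it was 0.48 for Sst (95% interval -0.20 to 1.16, edgeR adjusted p = 0.657) and 0.78 for Npy2r (-0.08 to 1.64, adjusted p = 0.578). For Npy5r, whose estimates were 0.31 in females and -0.23 in males, it was -0.54 (-1.12 to 0.04, adjusted p = 0.569). These intervals are wide, and a larger effect in females was not separated from an equal one. Between males and females over both genotypes, 0.654% of all genes passed, 0.457% lower and 0.197% higher in males, and none of the 10 did. Sstr2 had the smallest p of the 10, 0.55 lower in males on the log2 scale at an edgeR unadjusted p of 0.0062 and adjusted p of 0.190.

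Of 13 markers of Sst interneurons other than Sst itself, 12 were tested; 4 fell, none rose and 8 did not pass, with a median log2 difference of -0.37. Over all genes tested 6.69% were lower and the median was 0.0045, and the list was chosen with results of these animals known. Crhbp, which binds corticotropin-releasing hormone, averaged 7.25 ± 2.05 CPM in Q140 animals and 13.0 ± 4.28 CPM in WT animals (SD, n = 6 each; log2 difference -0.83, edgeR adjusted p = 0.0299). Elfn1, a postsynaptic organizer in these cells, had a log2 difference of -0.49 (adjusted p = 0.0394), and Lhx6, a transcription factor of their lineage, -0.43 (0.0468). Without WT replicate 6, 1 of the 12 passed, and Crhbp, Elfn1 and Lhx6 did not. The summed level of the list was 199 to 263 CPM in Q140 animals and 225 to 346 CPM in WT animals.

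In the Lamp5 and neurogliaform list, a class that also makes neuropeptide Y, 3 of 7 fell and none rose (median log2 difference -0.17): Lamp5 by 0.62, the transcription regulator Id2 by 0.27 and the receptor kinase gene Kit by 0.17 on the log2 scale, of which Kit did not pass without WT replicate 6. Of 6 Pvalb interneuron markers, 1 fell, the potassium channel gene Kcnc1, by 0.27. None of 6 Vip and Cck interneuron markers passed (median -0.27), and none of the 9 genes shared by GABA neurons passed (median -0.02). Over all genes tested 6.69% were lower and 4.50% higher, and these lists too were chosen with earlier results known. The shared GABA genes summed to 835 to 1035 CPM in Q140 animals and 817 to 1071 CPM in WT animals, almost the same range.

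**Figure D3:**
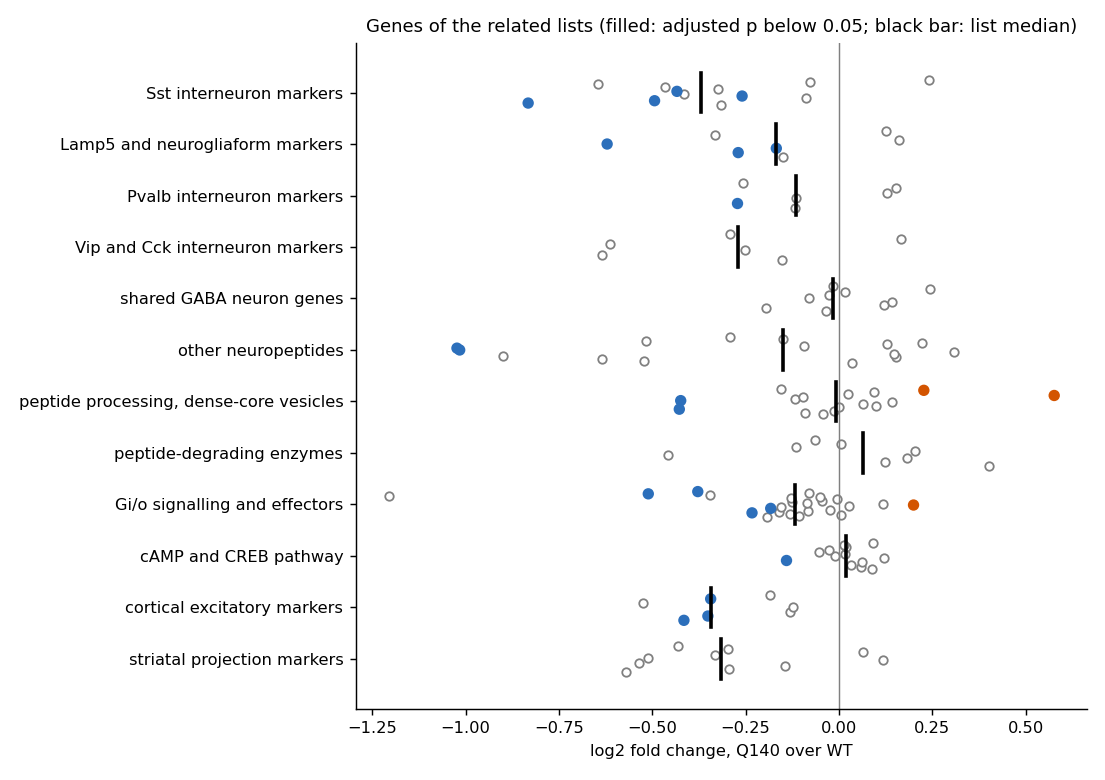
Fitted log2 fold change, Q140 over WT (horizontal axis), of each tested gene in 12 related lists (rows); filled points have an adjusted p below 0.05 and black bars are list medians. The median is -0.37 for the Sst interneuron list, -0.34 for cortical excitatory markers and -0.32 for striatal projection markers. It is -0.27 for Vip and Cck interneuron markers and -0.02 for the genes shared by GABA neurons.

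Among other neuropeptide precursors, 2 of 15 tested fell and none rose, the opioid precursors Penk and Pdyn, both of which the striatum also expresses. Each fell by 1.02 on the log2 scale. In the machinery that turns such precursors into peptides, 2 of 16 genes fell, 2 rose and 12 did not pass (median log2 difference -0.01). Chgb, a granin of dense-core vesicles, fell by 0.43 on the log2 scale, and Pcsk2, a convertase that cuts prosomatostatin, fell by 0.42, with an antisense gene, Pcsk2os1, overlapping it. Scg5, the chaperone of that convertase, rose by 0.23, and Qpct, which forms the pyroglutamate end of some peptides, rose by 0.58. None of 8 peptide-degrading enzymes passed, and 1 rose without WT replicate 6. The shares over all genes tested were 6.69% lower and 4.50% higher.

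Downstream of the receptors, 4 of 24 Gi/o subunits, effectors and regulators fell, 1 rose and 19 did not pass (median log2 difference -0.12). Kcnj9, a subunit of the G protein-gated potassium channel, averaged 88.7 ± 9.55 CPM in Q140 animals and 126.5 ± 16.4 CPM in WT animals (SD, n = 6 each; log2 difference -0.51, edgeR adjusted p = 0.0024). Rgs7, which ends Gi/o signals, averaged 93.1 ± 6.33 CPM in Q140 animals and 121 ± 3.36 CPM in WT animals (log2 difference -0.38, edgeR adjusted p = 0.000239). The presynaptic calcium channel gene Cacna1a fell by 0.18 on the log2 scale, and Gnai2, an inhibitory G protein subunit found in many cell types, rose by 0.20. In the cAMP and CREB list, 1 of 13 fell, the CREB coactivator Crtc1, by 0.14, and it did not pass without WT replicate 6. That count is near the share over all genes tested, of which 6.69% were lower and 4.50% higher.

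Some markers of other cell types also differed, where 6.69% of all genes tested were lower and 4.50% higher. Of the 7 cortical excitatory markers 3 fell, with log2 differences of -0.34 for Slc17a7, -0.35 for Emx1 and -0.42 for Camk2a, of which Emx1 did not pass without WT replicate 6. All 7 had a negative estimate, with a list median of -0.34, near that of the Sst interneuron list (-0.37). The median of the 10 striatal markers was -0.32. Of 6 oligodendrocyte markers 3 rose, Mog by 0.61, Mag by 0.49 and Cnp, which overlaps Dnajc7 on the opposite strand, by 0.40 on the log2 scale. Of 5 microglia markers 1 rose, Tmem119, by 0.27. None of 10 striatal, 5 astrocyte or 6 meningeal markers passed, and without WT replicate 6, 2 of the striatal markers were lower. The part of these cell types in the results on the 10 genes was not tested beyond the covariates given.

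The genes whose level followed Sst most closely between animals, after group means of genotype and sex were removed, were Htr1a (Pearson r = 0.965), 3110082I17Rik (0.954), Elfn1 (0.947), Arl4c (0.938) and Crhbp (0.937), over 12 animals and 15485 genes. Elfn1 and Crhbp are also on the Sst interneuron list. For Npy they were RP24-267I21.3 (0.971), Gnb4 (0.951), Ntng2 (0.951), Efhd2 (0.936) and Medag (0.934). For Npy, r was between 0.836 and 0.927 without WT replicate 6, whereas for Sst it was between 0.928 and 0.963. The animals differed in library depth and in their marker sums, and what moved these genes together was not tested, so these values are a description. 3110082I17Rik overlaps Gper1 and other genes and Ntng2 overlaps 6530402F18Rik, so their reads are uncertain.

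Across animals within a genotype, 4 relations were computed on log2 CPM. Sst and Npy gave r = 0.318 in Q140 animals (exact permutation p = 0.532, adjusted 0.532; rho = 0.371, p = 0.497). In WT animals they gave r = 0.816 (exact permutation p = 0.0486, adjusted 0.164; rho = 0.829, p = 0.0583). Without the 2 animals farthest from the median of Sst, r was 0.675 in Q140 animals and 0.555 in WT animals.

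For the neighbours Npy1r and Npy5r, r was -0.295 in Q140 animals (exact permutation p = 0.532, adjusted 0.532; rho = -0.257, p = 0.658). In WT animals r was 0.735 (exact permutation p = 0.0819, adjusted 0.164; rho = 0.543, p = 0.297). Without the 2 animals farthest from the median of Npy1r, r was -0.738 in Q140 animals and -0.556 in WT animals, so the positive WT value rests on those animals, WT replicate 6 among them. On log2 FPKM the Q140 value without the 2 farthest animals was 0.860, of the opposite sign, and no direction is read from it. None of the 4 relations passed after adjustment.

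**Figure D4:**
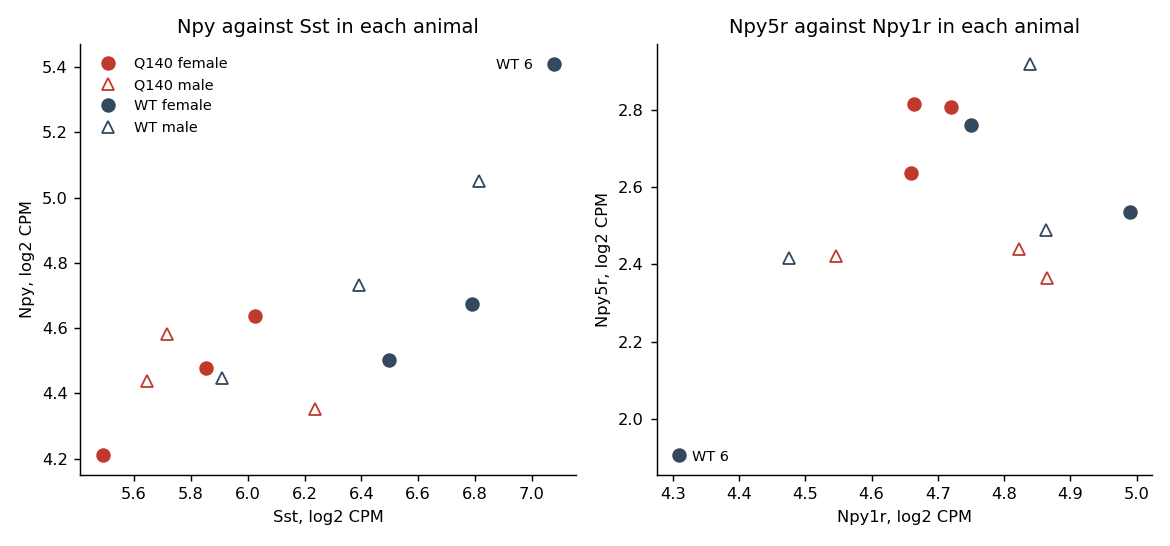
Npy against Sst (left) and Npy5r against Npy1r (right) in log2 CPM, 1 point per animal, with filled circles for females and open triangles for males. WT replicate 6 is the highest point for both Sst and Npy and the lowest for both Npy1r and Npy5r.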

How the data were processed

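RNA from the piriform cortex of 12 mice was sequenced, 1 library per animal, with a TruSeq stranded preparation, per the labels' protocols. The deposited count table holds whole reads per gene, not normalized. STAR 2.7.5c, SAMtools 1.10 and HTSeq 0.12.3, with GRCm38 and mm10, are named in the submitters' processing notes. The FPKM values deposited by the authors follow from these counts and each column total: the gene length they imply varied between libraries by at most 5.56e-09 (coefficient of variation, 15054 genes with 20 or more counts in each).

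Differential expression used edgeR 4.0.16 under R 4.3.3 (quasi-likelihood, TMM, default filter by genotype, sex as covariate), which kept 17725 genes. Effects within a sex and their difference came from 1 model with the 4 combinations of sex and genotype. Adjusted p-values are two-sided Benjamini-Hochberg values over all genes tested, with a threshold of 0.05. CPM values are scaled with the TMM factors, which were 0.998 to 1.04 in Q140 and 0.970 to 0.996 in WT libraries. Promoter windows are those of RefSeq on GRCm38.p6, and gene coordinates those of GENCODE M21. Alternatives used DESeq2 1.42.0 and limma 3.58.1. The fits were also run on simulated counts with set genotype differences. Those counts held no differences of name prefix or cell type markers between animals, so that run does not bear on their effects.

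The text names the 10 genes, up to 4 genes of each list that passed (by smallest p), and the 5 genes most alike Sst and Npy among those with a mean of at least 1 CPM. Genes with values outside this rule were chosen after their values were seen. The members and lists were chosen with earlier results of these data known. Covariates of the Sst interneuron and meningeal lists, and list counts without WT replicate 6, were added after seeing the data. The values of 1 list gene that passed are not reported here.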

Additional observations from a re-analysis of the deposited data

Results flagged for a closer look

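In 54 groups of 6 animals, 4 had an extreme animal far from the others, and chance gives about 1 in 20 such groups. Sstr2 in WT replicate 6 was 42.6 CPM, against 15.6 to 25.5 CPM in the other WT animals. The summed level of the Lamp5 and neurogliaform list was 368 CPM in Q140 replicate 6, against 410 to 430 CPM in the other Q140 animals. The same sum was 426 CPM in WT replicate 6, against 482 to 512 CPM in the other WT animals. The summed level of the Gi/o list was 5124 CPM in WT replicate 6, against 4773 to 4893 CPM in the other WT animals.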

How the results depend on the processing

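Over 28 alternatives in the genotype comparison, Sst passed in 23 (log2 difference -0.89 to -0.19), Npy2r in 24 (-1.21 to -0.38) and Sstr2 in 13 (-0.71 to -0.11). Without any single animal, Sst (-0.89 to -0.67) and Npy2r (-1.21 to -0.81) passed in all 12 fits and Sstr2 in 6 of 12. Of the 10 genes, 3 were lower, against 1 with limma on log2 FPKM + 0.1 and 0 in each of 4 settings: that with no filter, the prefix term, the number block and the Sst interneuron covariate. Leaving out single animals gave 2 to 3, and 0 to 2 within females, against 2. Over all genes, 1982 passed, against 872 with log2 FPKM + 0.1 and no filter, 1119 with the meningeal covariate, 122 with the Sst interneuron covariate, 81 with the prefix term and 1 with the number block, and 1139 to 2504 without single animals. The sign turned for genes that did not pass. Npy1r was 0.039 with total counts, 0.055 with log2 FPKM + 0.1 (with and without the filter), 0.048 with log2 FPKM + 1, 0.011 with the striatal covariate, 0.067 with the prefix term, 0.021 with the number block and 0.091 with the meningeal covariate. Sstr1 was 0.023 with voom, 0.0011 with log2 FPKM + 0.1 (with and without the filter), 0.017 with the shared GABA covariate and 0.27 with the Sst interneuron covariate. Cort was 0.031 with the prefix term, 0.13 with the number block and 0.36 with the Sst interneuron covariate, with which Sstr3 was 0.0028 and Npy5r -0.21. Without single animals, Npy1r was -0.080 to 0.068, Sstr1 -0.15 to 0.043 and Npy5r -0.074 to 0.16, and the difference between the sexes was -0.17 to 0.33 for Npy and -0.23 to 0.36 for Sstr2. The cause was not tested, but the prefix fit holds 9 animals and the block, on animals numbered 150 and 161, holds 5. Over all 12 animals, no paired analysis was possible because the replicate numbers of the 2 groups follow accession order and pair no animals. The block on the numbers in the animal names covers only those 5 animals, and the labels do not say what these numbers mark. No scaling moved the median of all genes by over 0.1 on the log2 scale.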
